A study of Mus musculus with 5 samples.

Results

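The 9 genes described here encode the selectin ligand backbone PSGL-1 (Selplg), the hyaluronan receptor CD44 (Cd44) and 7 Golgi enzymes that build the sugars such proteins carry, namely the fucosyltransferases Fut4 and Fut7, the branching enzyme Gcnt1 and the sialyltransferases St3gal1, St3gal4, St3gal6 and St6gal1. Their members were chosen as every probe set whose gene symbol in the platform annotation is one of these names, which gave 20 of the 45101 probe sets on the array and 9 of 18193 genes. Gene expression was measured on 5 Affymetrix arrays of CD4+ T cells with a transgenic receptor specific for the MOPC315 myeloma, all from TCR-transgenic SCID mice on the Balb/c background, adults of 7 to 12 weeks. The 3 activated samples were GB113+ cells sorted at 95% purity or better from pooled draining axillary lymph nodes on day 8 after a subcutaneous injection of 100000 MOPC315 cells in 250 µl of growth factor-reduced Matrigel, from 12 to 15 mice. The 2 naive samples were CD4+ T cells of the same specificity from pooled nodes of naive animals of that line, and no group given Matrigel alone was analysed here. The design text says that the naive cells were treated as the activated ones were, without giving a mouse number, marker or purity for them. The labels call the samples biological replicates from independent experiments, and their small number limits the precision of every value.

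T cells roll on inflamed vessels when P- and E-selectin on the endothelium bind sialyl Lewis X, a sugar cap on surface proteins such as PSGL-1, CD43 and CD44. On PSGL-1 the cap sits on a core 2 O-glycan, which Gcnt1 starts, St3gal4 and St3gal6 sialylate and Fut7 fucosylates last. St3gal1 sialylates the unbranched core 1 O-glycan, the substrate for which it competes with Gcnt1, and St6gal1 adds sialic acid in another linkage, mainly to N-glycans. CD44 binds hyaluronan and is a standard marker of T cells that have met antigen.

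In activated cells Cd44, Gcnt1 and St3gal1 were higher than in naive cells, by 2.23-fold, 1.94-fold and 1.79-fold, and Selplg was lower by 1.73-fold. Fut7, St3gal4, St3gal6 and St6gal1 did not pass the test, and Fut4 was too dim to be tested. Of the 9 genes, 8 were tested, of which 3 rose and 1 fell. Over all 12873 tested genes 6.36% were called higher and 4.14% lower, with calls made in limma at a Benjamini-Hochberg adjusted p under 0.05, together 10.5% in either direction. A gene was tested when the intensity of its brightest probe set exceeded an array's 40th percentile, which was 10.5 to 13.4, on at least 2 arrays, and 7 of the 8 tested genes did so on all 5. The groups did not overlap for 5 of the 8, against 40.9% of all tested genes. Folds come from values of log2(intensity + 16), which shrinks the changes of dim genes. The median log2 fold change was 0.27 over the 8 genes and -0.03 over all tested genes. In such bulk samples, fewer cells expressing a gene and less RNA per cell cannot be told apart.

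**Figure D1:**
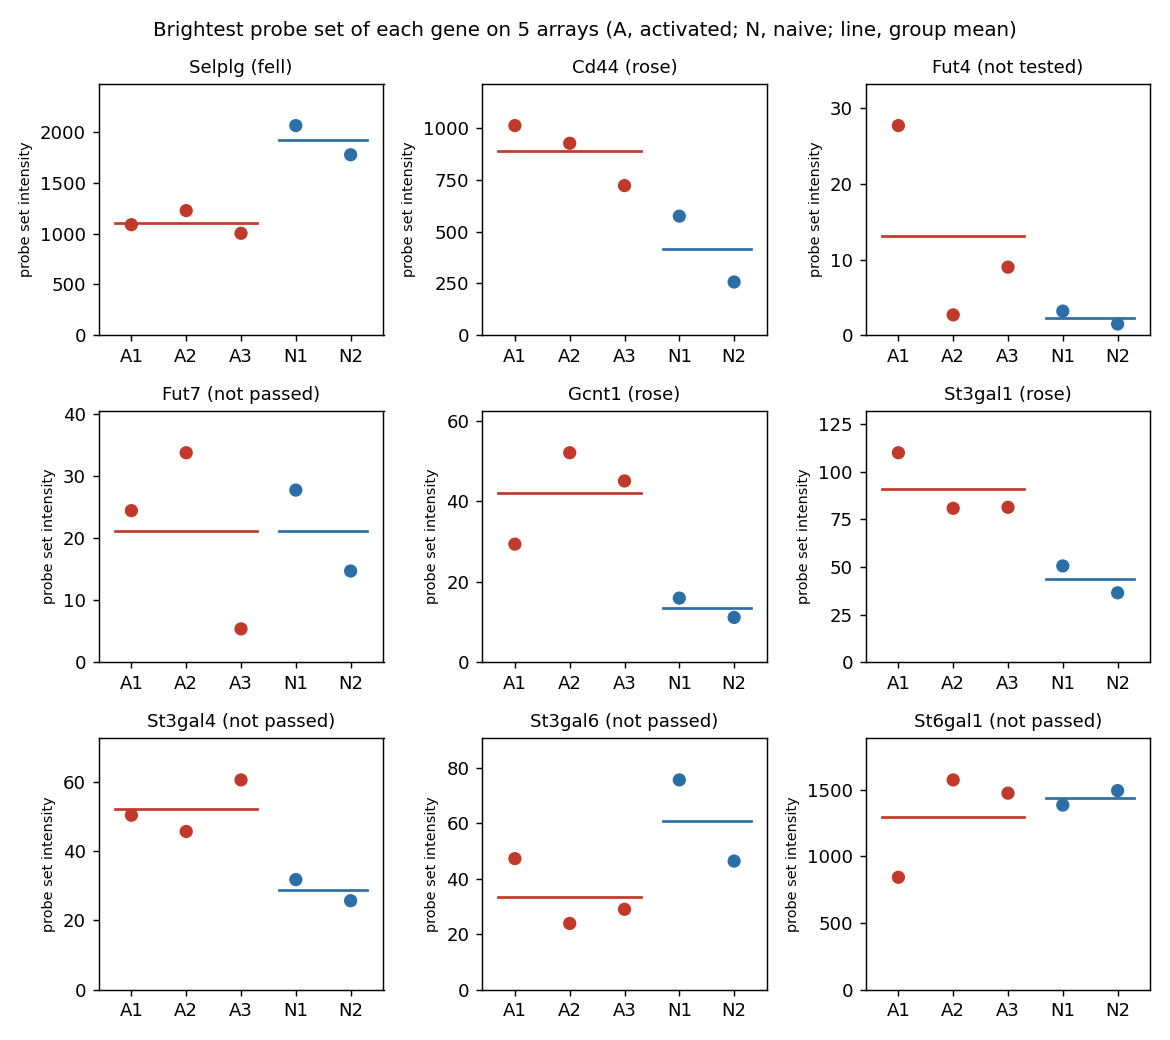
Probe set intensity (linear vertical axis from 0, a different range in each panel) on the 3 activated (A, red) and 2 naive (N, blue) arrays for the brightest probe set of each of the 9 genes; lines are group means. Selplg lies lower and Cd44, Gcnt1, St3gal1 and St3gal4 higher on all 3 activated arrays than on both naive arrays, while the groups overlap for Fut4, Fut7, St3gal6 and St6gal1.

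Among the proteins that carry selectin ligands, Selplg, the main ligand of P-selectin on leukocytes, was bright in every sample. Its probe set intensity was 1087.9, 1226.7 and 1003.1 in activated samples 1 to 3 and 2062.7 and 1775.9 in the naive samples. The highest activated array thus lay below the lower naive array. The activated mean of 1106 ± 113 (SD, n = 3) against the naive mean of 1919 ± 203 (SD, n = 2) gave a log2 fold change of -0.79, with an SE of 0.16 and an adjusted p of 0.011 in limma. Without naive replicate 1 it did not pass, at a log2 fold change of -0.68 (adjusted p = 0.093). Selplg is represented by 1 probe set, so no other probe set could be set beside it. In a fit of all probe sets above the filter it passed as well (adjusted p = 0.016), but not on leaving out activated replicate 1 or 2 or either naive array (adjusted p = 0.050 to 0.094).

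Cd44 had 4 probe sets, of which 3 were bright, and all 3 rose. The brightest, 1423760_at, read 1011.6, 926.3 and 722.2 in activated samples and 574.8 and 257.1 in naive samples. Its log2 fold change in limma was 1.15, with an SE of 0.29 and an adjusted p of 0.028 over genes. The naive arrays differed from each other more than the groups' nearest arrays did, and the call ended on leaving out activated replicate 1 (1.05), activated replicate 2 (1.12) or naive replicate 2 (0.60). Leaving out naive replicate 1 raised the log2 fold change to 1.71. Without the filter (adjusted p = 0.079) or the trend of variance on intensity (adjusted p = 0.075) it did not pass either.

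The other bright Cd44 probe sets varied less between replicates relative to their change. In the fit of 23722 probe sets, of which 5.58% were called higher and 3.07% lower, probe set 1434376_at rose by 1.08 on the log2 scale, with an SE of 0.20 and an adjusted p of 0.0094. It read 735.5, 499.1 and 666.9 in activated samples against 322.8 and 255.4 in naive samples. Probe set 1452483_a_at, whose name marks shared sequence, had intensities of 370.9, 204.8 and 219.7 against 95.5 and 37.7. Its log2 fold change was the largest of the 3, at 1.81, with an SE of 0.33 and an adjusted p of 0.0077. In this fit both kept their calls when each array was left out in turn, except naive replicate 2, without which they lay at 0.92 (adjusted p = 0.088) and 1.29 (adjusted p = 0.063). Probe set 1443265_at was listed at 14.9 on activated replicate 1 and at 1.1 or less on each other array, and was not tested.

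Transcripts of other cell types differed between these arrays. The 12 myeloid and dendritic cell markers summed to 5605.6 on activated replicate 1, to 333.5 and 1033.7 on activated replicates 2 and 3, and to 525.4 and 278.7 on naive replicates 1 and 2. On the same array, 6 NK cell markers summed to 3896.2, against 712.3 to 834.6 on the others, and 7 neutrophil markers to 980.4, against 72.8 to 115.3. Of the NK cell markers, Gzma was the largest part on that array, at 2489.5, and read 142.0 to 627.5 on the others. Ncr1 read 265.3 on that array and 11.2 or less on the others. Myeloid and NK cells also express Cd44. Activated replicate 2, whose myeloid sum lay below that of naive replicate 1, had a Cd44 intensity of 926.3 on the brightest probe set. On probe sets 1434376_at and 1452483_a_at it read 499.1 and 204.8, the lowest of the activated arrays. Within each group, the order of the arrays on these probe sets was that of the myeloid sums. On the brightest probe set it was so among the naive arrays only. The change without activated replicate 1 is given above. Of the CD8 T cell markers Cd8b1 fell by 1.61 (adjusted p = 2.8e-04), from 797.6 and 995.7 on the naive arrays to between 246.8 and 326.5 on the activated arrays, while Cd8a overlapped. Their part in the results was not tested. The T cell markers of the labelled type were bright on every array, with Cd3e between 1221.3 and 2039.3 and Cd4 between 732.6 and 1119.4.

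**Figure D2:**
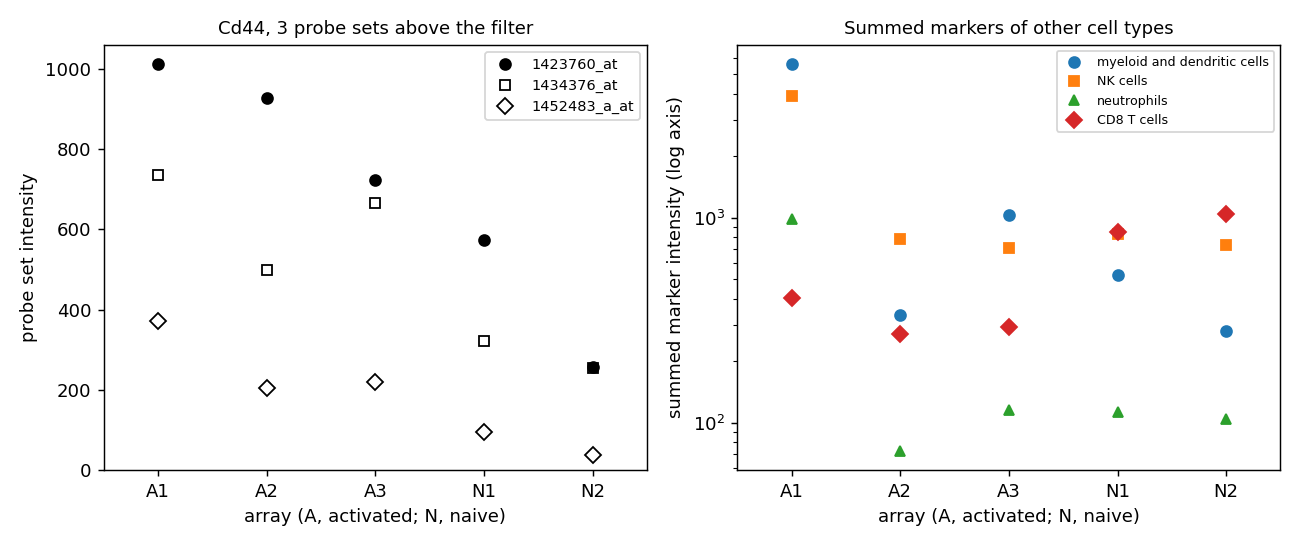
Left, intensity (linear axis) of the 3 Cd44 probe sets above the filter on each array; right, the summed intensity (log axis) of marker lists of 4 other cell types on the same arrays (A, activated; N, naive). All 3 Cd44 probe sets are higher on each activated array than on either naive array; the myeloid, NK cell and neutrophil sums are highest on activated replicate 1, at 5605.6, 3896.2 and 980.4.

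The branching enzyme Gcnt1, which makes the core 2 O-glycan, was dim and higher in activated cells. Its brighter probe set, whose name marks shared sequence, read 29.4, 52.1 and 45.1 in activated samples and 16 and 11.2 in naive samples. The groups thus did not overlap. In limma this was a log2 fold change of 0.96, with an SE of 0.25 and an adjusted p of 0.038. The second probe set, not so marked, had intensities of 14.0, 26.3 and 51.2 against 13.1 and 5.4. It lay at 0.82 ± 0.35 (SE) and did not pass (limma adjusted p = 0.19 over probe sets). Gcnt1 no longer passed on leaving out activated replicate 2 (0.84) or 3 (0.91) or naive replicate 1 (1.08) or 2 (0.84), without the filter (adjusted p = 0.10), or with its probe sets averaged (adjusted p = 0.059). With a pseudocount of 1 in place of 16 its log2 fold change was 1.55, and with 64 it was 0.45.

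St3gal1, the sialyltransferase of core 1 O-glycans, was higher too. Its brighter probe set read 109.9, 80.8 and 81.3 in activated samples and 50.6 and 36.5 in naive samples, without overlap. The change in limma was 0.84 on the log2 scale, with an SE of 0.22 and an adjusted p of 0.033. The second probe set overlapped between groups, with 68.6, 20.7 and 43.3 against 26.3 and 23.6, and did not pass, at 0.48 (limma adjusted p = 0.43 over probe sets). On both probe sets, the arrays within each group lay in the order of the myeloid sums given above. The part of such cells in the change of St3gal1 was not tested. Leaving out any of the 5 arrays ended the call of St3gal1: the log2 fold change was 0.71, 0.90 and 0.90 without activated replicates 1, 2 and 3, and 1.01 and 0.67 without naive replicates 1 and 2. So did averaging its probe sets, at 0.66, and leaving out the filter or the intensity trend.

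Gcnt1 and St3gal1, which act on the same core 1 O-glycan, thus moved in the same direction. A difference between their changes was not tested.

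The bases before the start sites of Cd44 and Gcnt1, the rising genes found in RefSeq's promoter table (GRCm38.p6), are shown for context. The table held 7 of the 9 genes, with 13 start sites. Each line gives the 250 bases before a start in the gene's own direction, with capitals for any match to the motifs searched on both strands:

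Cd44, chr2:102901666-102901915, minus strand: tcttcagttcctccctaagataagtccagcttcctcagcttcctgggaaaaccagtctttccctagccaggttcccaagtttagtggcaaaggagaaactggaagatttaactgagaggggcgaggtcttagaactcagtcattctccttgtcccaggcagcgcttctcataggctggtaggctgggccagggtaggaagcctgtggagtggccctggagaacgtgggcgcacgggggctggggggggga
Gcnt1, outermost start, chr19:17372845-17373094, minus strand: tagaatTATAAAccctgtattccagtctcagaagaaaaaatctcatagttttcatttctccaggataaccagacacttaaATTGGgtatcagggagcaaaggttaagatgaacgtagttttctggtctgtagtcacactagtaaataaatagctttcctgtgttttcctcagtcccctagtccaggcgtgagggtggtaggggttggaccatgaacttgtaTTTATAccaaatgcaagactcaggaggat
Gcnt1, middle start, chr19:17356668-17356917, minus strand: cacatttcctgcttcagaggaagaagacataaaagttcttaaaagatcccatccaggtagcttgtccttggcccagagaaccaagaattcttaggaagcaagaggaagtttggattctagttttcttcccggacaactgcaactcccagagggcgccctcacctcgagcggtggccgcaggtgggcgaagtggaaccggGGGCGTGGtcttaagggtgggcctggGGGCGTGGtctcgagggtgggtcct
Gcnt1, innermost start, chr19:17339506-17339755, minus strand: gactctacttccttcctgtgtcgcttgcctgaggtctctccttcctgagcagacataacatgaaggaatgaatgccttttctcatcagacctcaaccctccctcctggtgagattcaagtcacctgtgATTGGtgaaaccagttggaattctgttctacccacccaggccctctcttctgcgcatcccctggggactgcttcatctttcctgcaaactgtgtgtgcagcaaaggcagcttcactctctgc

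The motifs were the GC box GGGCGG, the KLF motif GGGCGTGG, the TATA box TATAAA, the CCAAT box, the T-box motif GGTGTGA, the STAT motif TTCNNNGAA, the AP-1 motif TGANTCA and the E-box CACGTG. None lies in the Cd44 window. The outermost Gcnt1 start has the TATA box letters from 29 and from 244 bases before it and a CCAAT box, the middle start has the KLF letters from 25 and from 51 bases before it, and the innermost start has a CCAAT box from 122 bases before it. Over all 32851 windows of the same length, 12.4% hold the TATA box letters, 33.8% a CCAAT box, 4.79% the KLF letters, 32.7% a GC box, 3.33% the T-box letters, 7.02% the STAT letters, 6.75% the AP-1 letters and 6.02% the E-box. These matches are descriptions of the letters, and the arrays do not tell which start was used.

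**Figure D3:**
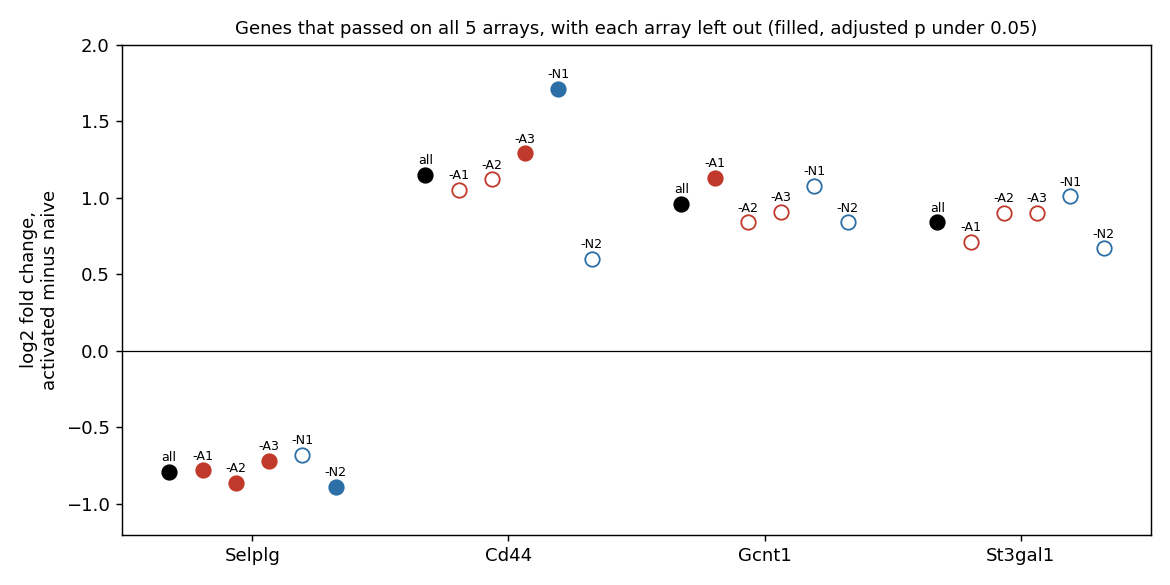
Log2 fold change (activated minus naive) of the 4 genes that passed on all 5 arrays (black), and of each with 1 array left out (red, an activated array; blue, a naive array); filled points have an adjusted p under 0.05. The groups of these genes do not overlap, so no omission could turn a sign; Selplg loses its call in 1 of 5 omissions and St3gal1 in all 5.

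The 2 enzymes that sialylate the lactosamine arm of core 2 did not pass the test. St3gal4, on its only probe set, read 50.4, 45.7 and 60.6 in activated samples and 31.8 and 25.7 in naive samples. The groups did not overlap, but the log2 fold change of 0.61 ± 0.22 (SE) had an adjusted p of 0.11 in limma's test. St3gal6 had 5 probe sets, of which 3 were tested and none passed, with log2 fold changes of -0.64, -0.26 and -0.17. Its brightest read 47.3, 23.9 and 29.0 in activated samples and 75.7 and 46.4 in naive samples, overlapping through activated replicate 1 (adjusted p = 0.18). The other 2 St3gal6 probe sets were below the filter on all 5 arrays, at 7.8 or less.

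Fut7, the fucosyltransferase that completes sialyl Lewis X in leukocytes, was near the filter intensity and scattered widely in both groups. Its probe set read 24.4, 33.7 and 5.4 in activated samples and 27.7 and 14.7 in naive samples. The means were equal, at 21.2 ± 14.4 (SD, n = 3) and 21.2 ± 9.19 (SD, n = 2), and the log2 fold change was -0.06 ± 0.36 (SE, adjusted p = 0.94). Its sign turned to positive, at 0.29, without activated replicate 3 and, at 0.19, without naive replicate 1.

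Fut4, which adds fucose to inner lactosamine units, was above the filter on activated replicate 1 alone, with intensities there of 27.7, then 2.7 and 9.0 in the other activated samples and 3.2 and 1.5 in the naive samples. Its other probe set lay at 7.6 or less on every array. Neither was tested.

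St6gal1, which caps N-glycans with sialic acid in the alpha 2,6 linkage, was bright and did not pass. Its brighter probe set read 842.9, 1573.3 and 1473.9 in activated samples and 1384.8 and 1492.9 in naive samples, so activated replicate 1 was the low array. The log2 fold change was -0.20 ± 0.25 (SE, adjusted p = 0.69), and 0.08 without activated replicate 1. The second probe set, at 92.0, 87.2 and 127.0 against 90.4 and 55.0, lay in the opposite direction, at 0.43 (limma adjusted p = 0.33 over probe sets).

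Of all 20 probe sets, 15 were tested, of which 5 rose, 1 fell and 9 did not pass. Over all 23722 tested probe sets 5.58% were called higher and 3.07% lower. The 5 that rose were the 3 of Cd44 and the brighter ones of Gcnt1 and St3gal1. The other 5 were not tested.

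**Figure D4:**
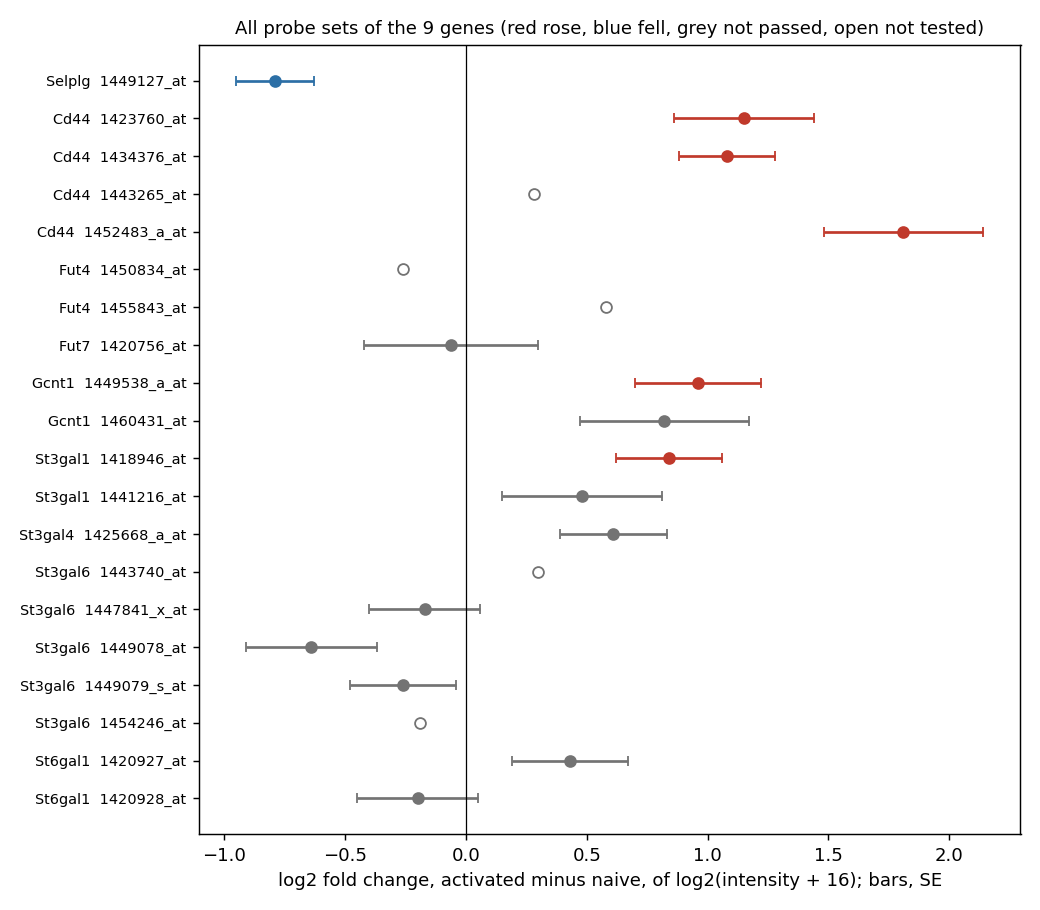
Log2 fold change (activated minus naive, of log2(intensity + 16)) of all 20 probe sets of the 9 genes; bars are the SE of limma's fit, red rose, blue fell, grey did not pass and open symbols were not tested. The 3 bright Cd44 probe sets lie between 1.08 and 1.81, and the 2 tested St6gal1 probe sets lie on opposite sides of 0.

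The arrays also fell on high and low sides of the bioC hybridisation control, with activated replicates 1 and 2 and naive replicate 1 on the high side. On the high and low side the log2 difference between activated and naive arrays was -0.83 and -0.81 for Selplg, 0.74 and 1.43 for Cd44, 0.80 and 1.17 for Gcnt1 and 0.73 and 0.89 for St3gal1. These are differences between 2 and 1 arrays on the high side and 1 and 1 on the low side, with no test, and since the groups of these genes do not overlap their signs could not differ between sides.

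In 8 lists of selectin ligand and glycan genes, 101 tested genes were not among the 9, of which 6 rose and 7 fell, against 6.36% and 4.14% of all tested genes. Their median change was -0.07 on the log2 scale. Of the vascular selectins, Selp, the P-selectin gene of platelets and endothelium, read 10.4, 27.8 and 32.7 in activated samples and 3.1 and 13.7 in naive samples and did not pass (log2 fold change 0.69, adjusted p = 0.25). Sele, the E-selectin gene of endothelium, was at 12.4 or less on every array and was not tested. High endothelial venules of lymph nodes also express Fut7 and Gcnt1. The 11 endothelial markers summed to between 366.1 and 426.7 on the activated arrays and to 284.3 and 236.5 on the naive arrays. Pecam1, which leukocytes express too, made up most of each sum. It alone rose of the 6 that were tested, by 0.82 on the log2 scale (limma adjusted p = 0.013). Its intensity was 157.9 and 168.7 on the naive arrays and 305.1, 258.6 and 345.4 on the activated arrays. Among the other tested markers Madcam1 lay lower on every activated array than on either naive array, without passing. The rest overlapped between groups. Ackr1 was above the filter on all 5 arrays, at 17.7 or more, and overlapped between groups. Glycam1, Tek, Tie1 and Plvap were below the filter on all 5, Glycam1 at 2.3 or less. The part of such cells in the results was not tested.

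Among carriers other than PSGL-1 and CD44, Cd24a, which encodes a small glycoprotein that can bind P-selectin, rose by 1.90 on the log2 scale (adjusted p = 1.9e-04), from 38.8 and 34.4 on the naive arrays to 201.4, 147.1 and 195.0 on the activated arrays, and kept its call in all 17 alternatives. Spn, which encodes CD43, lay at -0.17 (adjusted p = 0.60), or 0.05 when its probe sets were averaged. Glg1, which encodes E-selectin ligand 1, lay at -0.19 (adjusted p = 0.52). Of the tyrosine sulfotransferases that modify the end of PSGL-1 to which P-selectin binds, Tpst1 lay at -0.20 (limma adjusted p = 0.72; 0.02 without activated replicate 2) and Tpst2 at -0.08 (adjusted p = 0.86; 0.17 without naive replicate 1).

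Of 11 tested genes of lactosamine synthesis, the chains on which sialyl Lewis X is built, 1 rose and 2 fell. Over all tested genes the shares were 6.36% higher and 4.14% lower. B3gnt2, which extends these chains, rose by 1.53 (adjusted p = 1.4e-04), from 375.4 and 338.2 on the naive arrays to 1054.1, 1100.1 and 1017.4 on the activated arrays. It kept its call in all alternatives that gave it a value. The galactosyltransferase B4galt3 fell by 0.88, and no longer passed on leaving out activated replicate 1 (-0.82) or 2 (-0.79) or naive replicate 1 (-0.88) or 2 (-0.88), or with its probe sets averaged (-0.61). B4galt7, which builds the linker of glycosaminoglycan chains and not lactosamine, fell by 0.95 (-0.84 and not passed without naive replicate 1) on a probe set whose name marks shared sequence, and lay at -0.41 on one not so marked.

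Of 15 tested genes of O-glycan cores and branching, 1 rose, Gcnt1 itself, and 2 fell, against 6.36% and 4.14% of all tested genes. Those that fell, Galnt6 at -0.91 and Galnt10 at -0.92, encode enzymes that attach the first sugar of O-glycans. Galnt6 lost its call without activated replicate 2, at -0.76, or naive replicate 2, at -0.74. Galnt10 lost it on leaving out activated replicate 1 (-0.88) or 3 (-0.77) or naive replicate 1 (-1.10) or 2 (-0.73), without the filter and without the intensity trend. With probe sets averaged neither passed, Galnt6 lying at -0.62 and Galnt10 at -0.53.

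Of 24 tested sialic acid genes, 3 rose, St3gal1 among them, and 1 fell, against 6.36% and 4.14% of all tested genes. St6galnac3, which adds sialic acid to the innermost sugar of core 1, rose by 1.13, from 42.3 and 19.6 to 99.1, 78.5 and 75.3; it did not pass on leaving out activated replicate 1 (1.03) or 2 (1.17) or naive replicate 2 (0.78), nor without the filter, nor with its probe sets averaged (0.54). Nans, the synthase of sialic acid, rose by 0.60, a call that ended whichever array was left out, with values from 0.50 to 0.69, and also under median centring and without the intensity trend. St8sia6, which adds sialic acid to sialic acid, fell by 0.82; it did not pass on leaving out activated replicate 1 (-0.62) or 3 (-0.87) or naive replicate 1 (-0.78) or 2 (-0.87), under median centring, without the filter or without the trend.

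Of 12 tested genes of fucose supply and transfer, 0 rose and 1 fell in limma's test, against 6.36% and 4.14% of all tested genes. It was Fcsk, the kinase of fucose salvage, at -0.95 (-0.79 and -0.73, not passed, without activated replicate 2 and naive replicate 2) on a probe set whose name marks shared sequence, against 0.07 on one not so marked. Nor did it pass without the filter or with its probe sets averaged (-0.56). Of 12 tested N-glycan branching genes, 0 rose and 1 fell, against the same shares. It was the branching enzyme Mgat4a, which fell by 1.08 (adjusted p = 0.0044), from 173.3 and 183.2 to 76.4, 64.5 and 88.6. It kept its call with each array left out, but with its probe sets averaged it lay at -0.61 and did not pass (adjusted p = 0.063).

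Of 13 tested genes listed for sulfation, 1 rose and 0 fell, against 6.36% and 4.14% of all tested genes. It was Chst11, at 1.58 (adjusted p = 0.0085; 1.27 without naive replicate 2 and 0.73 with its probe sets averaged, neither of which passed), which sulfates chondroitin chains such as those CD44 can carry, not selectin ligand caps. Of 16 tested genes for hyaluronan and CD44 partners, 2 rose, Cd44 and Hmmr, and 0 fell, against the same shares. Hmmr, a hyaluronan receptor that also works at the mitotic spindle of dividing cells, rose by 2.27 (adjusted p = 2.6e-04), from 17.4 and 24.0 to 111.2, 192.2 and 191.0, and kept its call in all 17 alternatives.

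**Figure D5:**
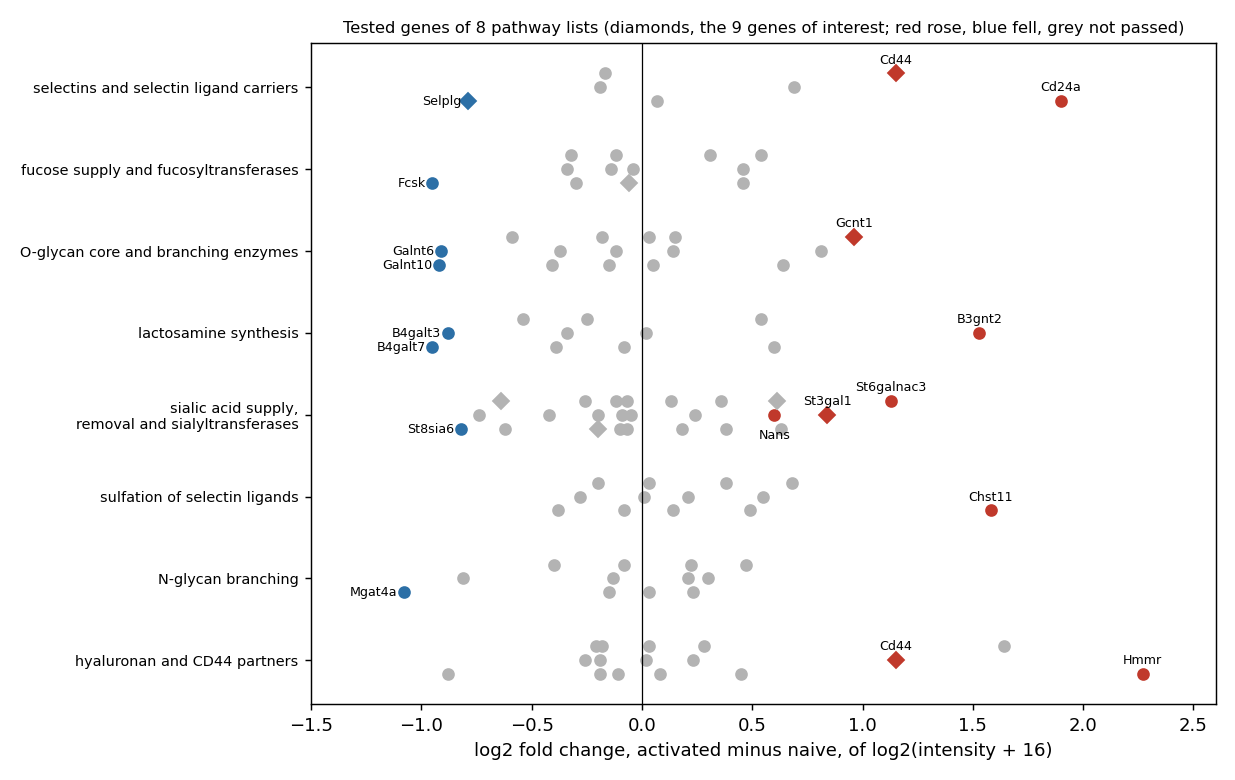
Log2 fold change (activated minus naive, of log2(intensity + 16)) of every tested gene in 8 pathway lists, 1 list per row; small vertical offsets only separate points, diamonds are members of the 9 genes, red rose, blue fell and grey did not pass. Calls lie on both sides of 0, from -1.08 for Mgat4a to 2.27 for Hmmr.

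The tested genes whose pattern over the 5 arrays lay nearest to each changed gene were found by the Euclidean distance of log2 values, each gene minus its own mean. For Selplg these were Dnajc28, Bpifa5 and Tapbpl, at distances of 0.08, 0.09 and 0.10. For Cd44 they were Orai3, Mbd4 and Akr1e1, at 0.16, 0.17 and 0.21. For Gcnt1 they were Rab19, Ankle1 and Prim2, at 0.13, 0.17 and 0.18. For St3gal1 they were Tubb5, Tax1bp3 and Ppp2r5d, at 0.13, 0.14 and 0.14. Bpifa5, Orai3, Mbd4, Ankle1 and Tax1bp3 did not pass the test themselves (limma adjusted p = 0.12, 0.053, 0.052, 0.072 and 0.050), while the others did. The distances were not tested.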

How the data were processed

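The deposited values are linear probe set intensities; per the labels' protocols, biotin-labelled cRNA from total RNA was hybridised to Affymetrix arrays. How they were summarised and scaled, and any detection call, is not given in the sources used here. Every array had a 2% trimmed mean near 100, so changes are relative to that average. Names came from the platform annotation, using the 34945 probe sets with 1 symbol, and all 9 members matched a RefSeq gene ID; 3 list symbols were updated through RefSeq synonyms.

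Values were taken as log2(intensity + 16). For each gene the probe set with the highest mean was used, and a second fit took every probe set. Tests were lmFit and eBayes with a mean-variance trend in limma 3.58.1 under R 4.3.3. They were two-sided, with p-values adjusted by Benjamini-Hochberg over all tested genes or probe sets and a threshold of 0.05. The code was tested on simulated arrays.

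The members, lists, filter and motifs were chosen with earlier results of these data known. Named were all 9 members, called list genes (at most the 3 largest rises and 3 largest falls per list), Selp, Sele, both tyrosine sulfotransferases and the 3 nearest patterns of each changed gene, leaving out predicted or unnamed genes; Spn, Glg1 and the marker genes were named after their values were seen. The marker lists were for endothelium, stroma, B cells, plasma cells, myeloid cells, neutrophils, NK cells, CD8 T cells, erythroid cells and CD4 T cells. In that order they had 6, 4, 4, 5, 10, 5, 5, 2, 1 and 7 tested genes. Of these, 1, 0, 0, 0, 0, 0, 1, 0, 0 and 1 were higher, against 6.36% of all tested genes. Lower were 0, 0, 0, 1, 0, 0, 0, 1, 0 and 0, against 4.14%. The myeloid marker Lyz2, at 1953.9, 35.8 and 353.6 on the activated arrays, had an SE of 1.09 and did not pass. Across tested genes, which are not replicates, Pearson correlations were 0.970 to 0.977 within groups and 0.929 to 0.944 between them, and no pair of arrays shared more than 0.947% of its values. Alternatives changed the normalization, filter, pseudocount, variance model, probe set choice, block and arrays used.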

Additional observations from a re-analysis of the deposited data

How the results depend on the processing

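Over the 17 alternatives, the log2 fold change of Selplg ranged from -0.89 to -0.68, Cd44 from 0.60 to 1.71, Gcnt1 from 0.45 to 1.55 and St3gal1 from 0.52 to 1.04, and these 4 genes lost their calls in 1, 5, 8 and 8 alternatives. Against 3 member genes higher, 0 were higher without the filter and 1 without the intensity trend. Against 5 probe sets higher and 1 lower, 2 were higher without the filter, 3 with a pseudocount of 64, and 3 higher and 0 lower without the trend. Of the pathway genes outside the 9, 7 were lower, against 4 without the filter and 3 with probe sets averaged. Leaving out each array in turn gave 0 to 1 member genes higher and 0 to 1 lower, 0 to 3 probe sets higher and 0 to 1 lower, and 3 to 6 other pathway genes higher and 2 to 6 lower. Fewer arrays enter these fits.

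The replicate numbers mark no stated pairing. The deviations of same-numbered arrays correlated at 0.17 and -0.13, and those of activated replicate 3 and naive replicate 2 at 0.31. With 2 naive arrays, the deviations of 1 mirror those of the other, so these values cannot decide on a pairing. Under the replicate block, a limma fit that holds replicate number constant, 12 other pathway genes were lower. Gcnt1 lost its call (adjusted p = 0.070), as did Nans (0.052) and Galnt10 (0.050). Replicate number 3 had no naive array, so activated replicate 3 did not enter the changes in this fit. Fut7 turned to 0.29, its value without that array. With each array left out, genes that had not passed ranged from -0.32 to 0.29 (Fut7), -0.36 to 0.08 (St6gal1), -0.44 to 0.02 (Tpst1) and -0.32 to 0.17 (Tpst2). St6gal1 turned to 0.11 and Spn to 0.05 with averaged probe sets, and Fcsk to 0.07 on probe sets whose names mark no shared sequence. The cause was not tested. St3gal4 passed with averaged probe sets, at an unchanged 0.61 (adjusted p = 0.049), and has no such unmarked probe set. Signal close to the filter limits Fut4, Fut7 and Gcnt1.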
